A study of Mus musculus with 9 samples.

Results

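The defensin genes of the mouse ileal crypt base were followed row by row in a table of 18220 expression values. A row belonged to the set when its NCBI gene number led to a symbol that begins with Defa, the alpha-defensins, or Defb, the beta-defensins. There were 30 such rows, 26 Defa and 4 Defb, out of 83 Defa and Defb symbols in the RefSeq annotation of the mouse. The levels were FPKM, fragments scaled to transcript length and to the library's mapped fragments, so rows of different length can be set side by side. RNA came from the crypt base of the small intestine, where intestinal stem cells lie between Paneth cells, cut out by laser microdissection. All mice were labelled wild type, and each group had 3 biological replicates. SAMP mice aged 25 weeks (SAMP 25 wk) had severe ileitis of the Crohn's disease type. SAMP mice aged 5 weeks (SAMP 5 wk) were without inflammation, and so were AKR mice aged 25 weeks (AKR 25 wk). SAMP is the SAMP/YitFc strain, in which ileitis arises without any induction, and AKR is its usual control strain. The protocol in the labels also mentions cultured crypts without saying what part they had in these libraries.

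Alpha-defensins of the mouse intestine, also called cryptdins, are small cationic peptides that Paneth cells store in granules and release into the crypt lumen, where they kill bacteria. They are made as precursors, and in the mouse the matrix metalloproteinase Mmp7 cuts them to the active form. The mature peptide is held together by disulfide bonds between its cysteines. Cryptdin-related sequences have a similar precursor and a different, more cysteine-rich end. Beta-defensins are a separate family with another cysteine spacing, and Defb1 is the member that many epithelia express at rest. Mouse neutrophils, unlike human ones, do not make alpha-defensins.

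All 26 Defa rows lay on chromosome 8 within 709.9 kb (chr8:21025545-21735471, GRCm38.p6). Defb1 followed on the same chromosome (chr8:21776555-21795185), while Defb25 was on chromosome 2. Reading frames from GENCODE M21 were found for 25 Defa rows, each on 2 exons, and the remaining one, Defa-ps1, is a transcribed pseudogene. By the letters between the first and the last cysteine codon from residue 41 on, 3 kinds held 23 of the 25. A short stretch of 78 bases with 6 cysteines was found in Defa2, Defa20, Defa21, Defa22, Defa32 and Defa33. A longer one of 87 bases was found in 13 rows, all with 6 cysteines except Defa41 with 7. A stretch of 156 bases with 11 cysteines was found in Defa29, Defa38, Defa39 and Defa42, on the minus strand, and RefSeq gives 3 of these (Defa29, Defa38 and Defa39) the synonym CRS1C, a cryptdin-related sequence. RefSeq also gives Defa31, a row with the long stretch, synonyms that begin with CRS4C, so the synonyms do not follow the stretches. Defa25 and Defa28 had the long form with an added cysteine. This sorting was made after the levels were known. Of the stretches below, those of Defa2, Defa35 and Defa17 are shown because other rows share them letter for letter while the levels of these rows differed between the groups, and those of Defa21, Defa31 and Defa42 as further rows that the results turn on, Defa42 with 11 cysteines. Cysteine codons are in capitals, 5′ to 3′. They are from the C57BL/6J reference and were not read from SAMP or AKR mice.
Defa2, the same in Defa33, Defa20 and Defa32: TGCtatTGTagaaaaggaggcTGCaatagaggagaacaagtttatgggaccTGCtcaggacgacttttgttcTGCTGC
Defa21: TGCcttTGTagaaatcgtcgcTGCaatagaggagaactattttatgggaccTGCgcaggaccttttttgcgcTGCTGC
Defa35, the same in Defa5, Defa37 and Defa34: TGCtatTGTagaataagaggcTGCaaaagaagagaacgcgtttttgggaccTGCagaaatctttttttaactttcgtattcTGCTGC
Defa17, the same in Defa3: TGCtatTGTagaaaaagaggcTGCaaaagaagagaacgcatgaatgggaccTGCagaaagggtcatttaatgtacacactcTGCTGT
Defa31: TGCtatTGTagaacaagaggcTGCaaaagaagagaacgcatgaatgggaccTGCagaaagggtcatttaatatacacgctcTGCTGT
Defa42: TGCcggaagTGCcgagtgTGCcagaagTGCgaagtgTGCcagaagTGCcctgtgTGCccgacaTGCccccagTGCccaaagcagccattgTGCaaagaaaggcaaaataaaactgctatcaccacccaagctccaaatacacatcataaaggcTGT

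The members resemble each other closely. Among 300 pairs of Defa proteins the identity ran from 44.8% to 100%, with a median of 68.1%, and 20 pairs reached 95%. For 17 of the 25 Defa transcripts the nearest other Defa transcript was at least 95% identical. The transcripts of Defa2 and Defa33 differed at 1 of 426 bases, A345G, with the Defa2 base first and positions counted from 1 at the 5′ end of the transcript. The transcripts of Defa20 and Defa32 differed at 1 of 425 bases, A343G, with the Defa20 base first. Both changes lay 3′ of the reading frame. How reads that match several copies were counted is not given in the sources used here. A single row of such a group is thus uncertain, and for several groups the sum over the copies is given as well. Copies were grouped at a protein identity of at least 95%. Defa29 and Defa39, with transcripts 96.1% identical and proteins 93.1% identical, were thus not summed. The rows also follow the gene models of the reference strain, and whether SAMP and AKR mice carry the same copies was not tested.

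The libraries held an estimated 7060000 to 10390000 reads, read from the steps between low FPKM values, and 1 read of a short defensin transcript such as Defa21 was worth 0.281 to 0.413 FPKM. All 10 Paneth cell markers other than defensins were present in each library, and their summed FPKM was 44044 to 71676 in SAMP 25 wk, 37937 to 47656 in SAMP 5 wk and, in AKR 25 wk, 23057 to 53506. All 5 stem cell markers of the crypt base were present too, with sums of 614 to 740 FPKM in SAMP 25 wk, 899.6 to 1121 in SAMP 5 wk and, in AKR 25 wk, 252 to 616. The 5 smooth muscle markers summed to 86.4 to 90.7 FPKM in SAMP 25 wk, 27.02 to 72.7 in SAMP 5 wk and, in AKR 25 wk, 32.5 to 76.3, and the part of either list in the results below was not tested. Of 7 neutrophil markers 6 had a row, and their sum was at most 10.01 FPKM in any library. The 10 enterocyte markers summed to 17526 FPKM in AKR 25 wk replicate 2, against 518 and 855 in the other AKR libraries and 169 to 1638 in the SAMP libraries. That library and SAMP 25 wk replicate 3 had stood apart in an earlier analysis of these data, and the results below were also computed without both.

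Defensins were among the most abundant transcripts in every library. The 26 Defa rows together had 103664, 175353 and 119529 FPKM in the SAMP 25 wk libraries, 68579, 49182 and 54324 FPKM in the SAMP 5 wk libraries and 148032, 81753 and 193747 FPKM in the AKR 25 wk libraries. That was 14.7% to 23.7% of all FPKM in SAMP 25 wk, 7.60% to 9.45% in SAMP 5 wk and, in AKR 25 wk, 13.4% to 28.9%. The SAMP 25 wk and AKR 25 wk sums overlapped, and all 3 SAMP 5 wk sums of these named rows lay below those of both other groups. The log2 ratio of the mean sums was -0.09 for SAMP 25 wk against AKR 25 wk, 1.21 for SAMP 25 wk against SAMP 5 wk and -1.30 for SAMP 5 wk against AKR 25 wk. No test was made on the sum. The first of these ratios took either sign when 1 library was left out (-0.36 to 0.21, positive without SAMP 25 wk replicate 1 or AKR 25 wk replicate 3), while the second stayed between 0.96 and 1.36 and the third was -1.57 at its lowest and negative throughout. Divided by the summed Paneth markers, the Defa sum was 2.14, 2.45 and 2.71 in SAMP 25 wk, 1.44, 1.18 and 1.43 in SAMP 5 wk and 3.65, 3.55 and 3.62 in AKR 25 wk, so the groups did not overlap in this ratio of named rows. This ratio depends on the markers chosen, and they did not move together. In SAMP 25 wk Lyz1 had 5435 to 9141 FPKM and Ang4 10472 to 16447. In AKR 25 wk Lyz1 had 15074 to 36165 FPKM and Ang4 555 to 1420. In captured tissue, fewer cells of a type and less RNA per cell cannot be told apart. The sum may also miss part of the family, since 6 rows that no reference table named exceeded 1000 FPKM in at least 1 library. They summed to 59020 to 102924 FPKM in SAMP 25 wk, 85541 to 103877 in SAMP 5 wk and, in AKR 25 wk, 1491 to 2282, and what they encode is not known here. Were they defensins, neither pattern would hold: with them added, the sums were 139865 to 172394 FPKM in SAMP 5 wk against 83244 to 196029 FPKM in AKR 25 wk, and the ratio to the Paneth markers was 3.43 to 4.05 in SAMP 25 wk, 3.62 to 3.69 in SAMP 5 wk and, in AKR 25 wk, 3.61 to 3.70, so that the groups overlapped. The log2 ratios of the mean sums would then be 0.54 for SAMP 25 wk against AKR 25 wk, 0.42 for SAMP 25 wk against SAMP 5 wk and 0.12 for SAMP 5 wk against AKR 25 wk. The shares given next are of the named Defa rows and would be lower with the unnamed rows counted.

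The make-up of the sum over named rows differed between the groups. Defa31 and Defa17, rows with the long stretch, together made most of the named sum in SAMP 25 wk. Defa31 held 31.4% to 32.3% of it and Defa17 30.1% to 30.8%. With the unnamed rows added, the SAMP 25 wk sums were 166145, 278278 and 178548 FPKM, and these 2 rows would not make most of them. The AKR 25 wk sums hardly changed, at 149846, 83244 and 196029 FPKM. In SAMP 5 wk Defa31 held 22.1% to 24.2% and Defa17 at most 23.2%. In AKR 25 wk the row with the highest share was Defa42, one of the rows with 11 cysteines, with 14.5% to 14.8%, followed by Defa20 with 12.2% to 12.7%. The fewest rows that made at least 50% of the sum were 2 in SAMP 25 wk, 3 in SAMP 5 wk and 5 in AKR 25 wk, the same in all libraries of a group. Rows with the long stretch held 91.5% to 94.7% of the sum in SAMP 25 wk, 82.6% to 87.5% in SAMP 5 wk and, in AKR 25 wk, 33.7% to 35.4%. Rows with the short stretch held 4.90% to 7.84% in SAMP 25 wk, 6.58% to 7.92% in SAMP 5 wk and, in AKR 25 wk, 38.7% to 39.0%. The 4 rows with 11 cysteines held 0.427% to 0.602% in SAMP 25 wk, 4.67% to 9.41% in SAMP 5 wk and, in AKR 25 wk, 25.9% to 27.4%. The shares of AKR 25 wk replicate 2 lay with those of the other AKR libraries although its sum was the lowest of that group.

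**Figure D1:**
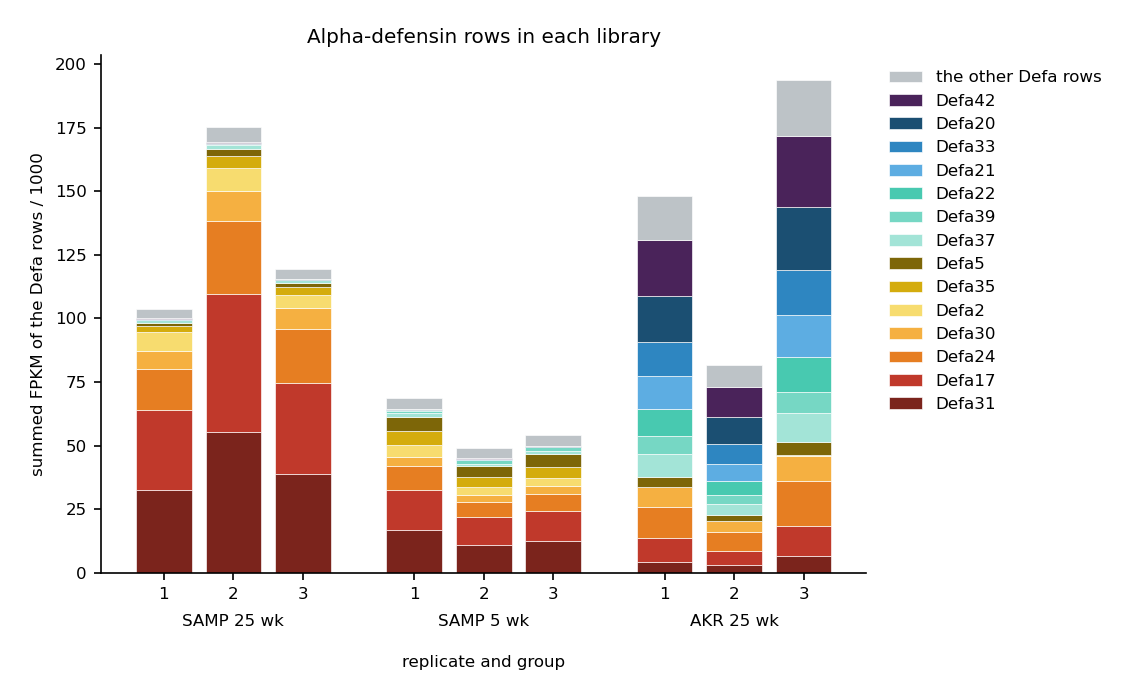
Summed FPKM of the 26 Defa rows in each library (vertical axis, FPKM divided by 1000), stacked by row, with the libraries of SAMP 25 wk, SAMP 5 wk and AKR 25 wk along the horizontal axis. Defa31 and Defa17 fill most of the SAMP 25 wk bars, while the AKR 25 wk bars are spread over many rows, led by Defa42 with 14.5% to 14.8%.

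SAMP 25 wk was set against AKR 25 wk to compare mice with ileitis to control mice of the same age. The defensin rows moved in both directions: 7 were higher and 12 lower of the 25 that could be tested (mean FPKM of at least 1). By the same rule, limma's moderated test at a Benjamini-Hochberg adjusted p of 0.05, 1.59% of all 11775 tested rows were called higher and 1.35% lower. Over the tested defensin rows the fold change had a median of -1.96 on the log2 scale, against -0.15 over all tested rows. Counts and medians, here and below, are of named rows and leave out the 6 unnamed rows above 1000 FPKM. Those summed to 59020 to 102924 FPKM in SAMP 25 wk and to 1491 to 2282 in AKR 25 wk. Were they defensins, the counts and medians could change. Fold changes are differences of log2(FPKM + 1), with SE from the fit of all 9 libraries. The spread within the group left out of a comparison thus enters the SE too. For Defa21, Defa33 and Defa42 that spread includes low values in SAMP 5 wk replicate 3, of 1.52, 0 and 6.19 FPKM.

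Defa2, a cryptdin of the short kind, stood out with the largest positive fold change of the 25. It had 7458, 9108 and 5233 FPKM in SAMP 25 wk against 51.0, 59.3 and 58.1 FPKM in AKR 25 wk, and its log2 fold change was 6.96 ± 0.29 (adjusted p = 2.4e-07). Its neighbour Defa33 (chr8:21391811-21392792, next to Defa2 at chr8:21378517-21379495), which encodes the same protein, went the other way. Defa33 had 57.2, 71.4 and 44.0 FPKM in SAMP 25 wk against 13258, 7816 and 17920 FPKM in AKR 25 wk, with a fold change of -7.74 ± 1.23 (adjusted p = 0.0046). Its call ended without both libraries that stand apart (adjusted p = 0.054, and 9.3e-07 to 0.054 over 19 alternatives). Defa20, whose stretch is also the same, had 276, 334 and 239 FPKM in SAMP 25 wk and 18091, 10397 and 24432 FPKM in AKR 25 wk, a fold change of -5.88 ± 0.35 (adjusted p = 2e-06). Of the 4 rows that share this stretch, Defa2 was thus called higher and Defa33 and Defa20 lower. The fourth, Defa32, did not overlap between the groups either and was not called: it was at 128, 160 and 131 FPKM in SAMP 25 wk and at 2333, 1089 and 3146 FPKM in AKR 25 wk (adjusted p = 0.18). Its fit included a value of 0 in SAMP 5 wk replicate 3, and without that library its adjusted p was 0.00019 (0.00019 to 0.39 over 19 alternatives). Summed, the 4 rows had 7919, 9674 and 5647 FPKM in SAMP 25 wk against 33734, 19362 and 45557 FPKM in AKR 25 wk. The sum was lower, with a fold change of -2.03 ± 0.42 (adjusted p = 0.022), while the rows themselves had changes of either sign.

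Another set of copies also held calls in both directions. Defa35, a long-stretch row, had 2664, 4902 and 3129 FPKM in SAMP 25 wk against 129, 77.3 and 175 FPKM in AKR 25 wk (4.83 ± 0.35, adjusted p = 1.2e-05). Defa37, 97.8% identical to it as a protein, had 862, 1870 and 1164 FPKM in SAMP 25 wk against 9063, 4576 and 11541 FPKM in AKR 25 wk (-2.66 ± 0.41, adjusted p = 0.0038). Defa5, with the same stretch, overlapped between the groups, with 1246, 2408 and 1386 FPKM in SAMP 25 wk and 3792, 2054 and 5026 FPKM in AKR 25 wk, and did not pass (adjusted p = 0.21). Defa35 was thus the one of these rows that was higher in SAMP 25 wk, and Defa37 and Defa34 were lower. The sum over Defa35, Defa5, Defa37, Defa34 and the near-copy Defa41 was 4884, 9446 and 5787 FPKM in SAMP 25 wk and 14163, 7318 and 18176 FPKM in AKR 25 wk. These sums overlapped, and their difference of -0.94 ± 0.43 did not pass (adjusted p = 0.32).

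**Figure D2:**
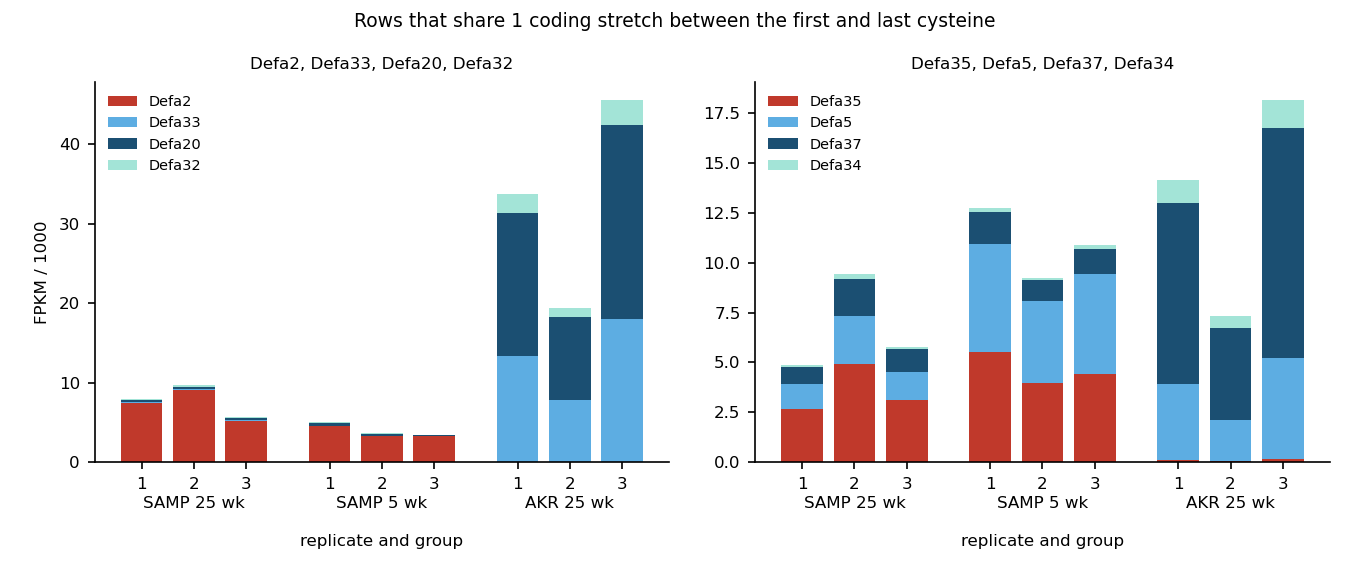
FPKM divided by 1000 (vertical axes) of 2 sets of rows that share 1 coding stretch, stacked in each library of SAMP 25 wk, SAMP 5 wk and AKR 25 wk. In the left panel the SAMP bars are nearly all Defa2 and the AKR bars nearly all Defa20, Defa33 and Defa32, while in the right panel the SAMP and AKR totals of 25-week mice overlap and Defa35 is nearly missing from the AKR bars.

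The most abundant named Defa rows of SAMP 25 wk, Defa31 and Defa17, belonged to the long-stretch kind. Defa31 had 32540, 55306 and 38650 FPKM in SAMP 25 wk against 4383, 3051 and 6493 FPKM in AKR 25 wk, and its log2 fold change was 3.21 ± 0.43 (adjusted p = 0.0014). Defa17 had 31516, 54087 and 35990 FPKM in SAMP 25 wk and 9113, 5651 and 12016 FPKM in AKR 25 wk, a fold change of 2.21 ± 0.44 (adjusted p = 0.018). In both, every SAMP 25 wk library was above every AKR library. The call of Defa31 ended with no filter on low values (adjusted p = 0.27, and 7.8e-06 to 0.27 over 19 alternatives). The call of Defa17 ended under 6 of 19 alternatives, among them without SAMP 25 wk replicate 3, without AKR 25 wk replicate 1 and without AKR 25 wk replicate 2 (adjusted p from 0.00021 to 0.53 over all 19). Defa3, which encodes the same protein as Defa17, had 3.42, 18.8 and 0 FPKM in SAMP 25 wk against 1407, 853 and 1817 FPKM in AKR 25 wk (-8.19 ± 0.98, adjusted p = 0.00061). Since Defa17 was far more abundant, their sum followed it, at 2.01 ± 0.43 (adjusted p = 0.029).

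Defa40 and Defa26, 95.7% identical proteins, were less abundant and also higher. Defa40 had 1119, 1827 and 1285 FPKM in SAMP 25 wk against 239, 122 and 320 FPKM in AKR 25 wk (2.70 ± 0.37, adjusted p = 0.0019). Defa26 had 1912, 3306 and 2113 FPKM in SAMP 25 wk against 451, 275 and 546 FPKM in AKR 25 wk (2.54 ± 0.35, adjusted p = 0.002). Neither pair of groups overlapped. The sum of Defa40 and Defa26 had a fold change of 2.60 ± 0.37 (adjusted p = 0.0024). Defa24 and Defa30, long-stretch cryptdins that were abundant in all groups, overlapped between the groups. Defa24 had 15902, 28905 and 21335 FPKM in SAMP 25 wk and 12454, 7480 and 17436 FPKM in AKR 25 wk (0.86 ± 0.44, adjusted p = 0.37). Defa30 had 7009, 11658 and 7986 FPKM in SAMP 25 wk and 7622, 4158 and 10115 FPKM in AKR 25 wk (0.34 ± 0.40, adjusted p = 0.73). The sum of Defa24 and Defa30 did not pass either (0.69 ± 0.45, adjusted p = 0.48).

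All 4 rows with 11 cysteines were lower in SAMP 25 wk. Defa42 had 130, 128 and 120 FPKM in SAMP 25 wk against 21841, 11860 and 28137 FPKM in AKR 25 wk (-7.25 ± 0.88, adjusted p = 0.00069). Defa38 had 42.9, 57.7 and 39.3 FPKM in SAMP 25 wk against 7571, 3646 and 9450 FPKM in AKR 25 wk (-7.09 ± 0.33, adjusted p = 2.5e-07). The lowest AKR library stood at 91.1 times the highest SAMP 25 wk library for Defa42 and at 63.2 times for Defa38. Whether the low SAMP 25 wk values hold reads of other copies was not tested, so these ratios are uncertain. Defa39 had 82.7, 109 and 59.9 FPKM in SAMP 25 wk against 6956, 3504 and 8367 FPKM in AKR 25 wk, a fold change of -6.16 ± 0.36 (adjusted p = 2e-06). Defa29 differed least, with 368, 533 and 291 FPKM in SAMP 25 wk against 4193, 2171 and 5230 FPKM in AKR 25 wk (-3.23 ± 0.38, adjusted p = 0.00061). The sum of Defa38 and Defa29 had a fold change of -4.53 ± 0.39 (adjusted p = 4.6e-05). Of the short kind, Defa21 had 77.5, 69.5 and 72.9 FPKM in SAMP 25 wk against 13158, 6654 and 16344 FPKM in AKR 25 wk, a fold change of -7.25 ± 0.99 (adjusted p = 0.0017). Its near-copy Defa22 fell by 5.97 on the log2 scale, and the sum of the pair had a fold change of -6.53 ± 0.39 (adjusted p = 3.3e-06). The other rows called lower were Defa34 (-2.77) and Defa41 (-1.96), the second of them with at most an estimated 21.3 reads in a library. The call of Defa41 ended under 4 of 18 alternatives, among them without SAMP 25 wk replicate 3, without AKR 25 wk replicate 1 and without AKR 25 wk replicate 3.

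**Figure D3:**
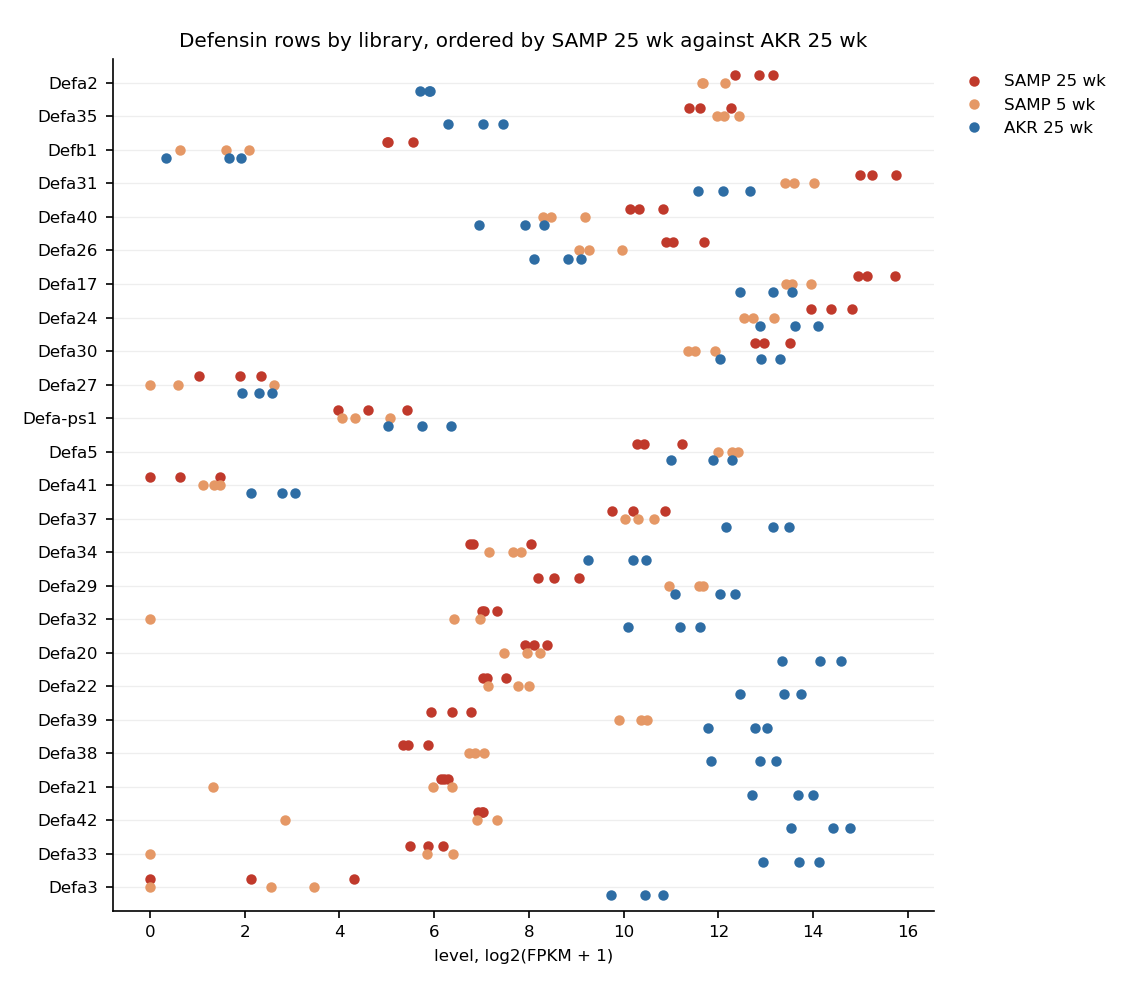
Level of each of the 25 tested defensin rows, as log2(FPKM + 1) on the horizontal axis, with 1 point per library coloured by group and rows ordered by the fold change of SAMP 25 wk against AKR 25 wk. Defa2 and Defa35 are high in all SAMP libraries, Defb1 in SAMP 25 wk, and the rows at the bottom, Defa3 to Defa20, are high in AKR 25 wk; single SAMP 5 wk points of Defa21, Defa32, Defa33 and Defa42 lie far below their group.

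Higher and lower rows were interspersed along chromosome 8. With the rows that were not called left out, the 18 called Defa rows formed 17 neighbouring pairs, of which 10 had opposite calls and 7 the same. The longest run in 1 direction was Defa33, Defa42, Defa20 and Defa37, all lower, directly after Defa2, which was higher. Of the 20 pairs with proteins at least 95% identical, 6 had opposite calls in SAMP 25 wk against AKR 25 wk, and 6 had the same call. Summing such copies before the fit left 13 rows, of which 4 were higher and 5 lower. The share called over all rows of that fit was not computed.

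Defb1 was the beta-defensin with a measurable level. It had 31.2, 45.7 and 31.6 FPKM in SAMP 25 wk against 2.82, 0.26 and 2.17 FPKM in AKR 25 wk, and its log2 fold change was 3.88 ± 0.43 (adjusted p = 0.00034). The SAMP 25 wk values rested on an estimated 211 to 274 reads, and the lowest AKR value, in the library rich in enterocyte transcripts, on 1.9 reads. Defb25, Defb37 and Defb40 did not pass 1.5 FPKM in any library and were not tested, and neither were Defa25 and Defa28, which did not pass 4.82 FPKM.

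Genes that process or regulate Paneth cell products were listed alongside. Counts at an unadjusted p, here and below, have no share over all tested rows beside them, as that share was not computed. Of 18 such genes 17 were tested, and in SAMP 25 wk against AKR 25 wk limma called 1 higher and none lower, while 4 were higher and 1 lower at an unadjusted p under 0.05. The one called was Spdef, a transcription factor of secretory cells, with 55.9, 55.6 and 52.5 FPKM in SAMP 25 wk against 14.2, 12.2 and 20.7 FPKM in AKR 25 wk (1.77 ± 0.31, adjusted p = 0.0079). Mmp7, the enzyme that cuts the precursors, had 182, 233 and 163 FPKM in SAMP 25 wk and 142, 101 and 178 FPKM in AKR 25 wk and did not pass (0.48 ± 0.26, adjusted p = 0.41). Xbp1, a regulator of the secretory apparatus, and Slc30a2, a zinc transporter of Paneth granules, did not pass either (adjusted p = 0.97 and 0.49). Nod2, a bacterial sensor, was at 0.03 to 0.12 FPKM in SAMP 25 wk and at 0.40 to 1.46 in AKR 25 wk and was below the filter. Of the 10 other Paneth markers 3 were called higher (Ang4, Mptx2 and Pnliprp2) and none lower by limma, against 7 and 1 at an unadjusted p under 0.05. Ang4, an angiogenin with antimicrobial activity, had 11368, 16447 and 10472 FPKM in SAMP 25 wk against 1083, 555 and 1420 FPKM in AKR 25 wk (3.72 ± 0.42, adjusted p = 0.00037). Lysozyme, Lyz1, had 8021, 9141 and 5435 FPKM in SAMP 25 wk and 26581, 15074 and 36165 FPKM in AKR 25 wk, and did not pass (-1.73 ± 0.44, adjusted p = 0.064). The 7 goblet cell markers summed to 14331 to 18629 FPKM in SAMP 25 wk, 4707 to 9486 in SAMP 5 wk and, in AKR 25 wk, 6414 to 9103, and their part in these results was not tested. Strain and ileitis cannot be told apart in SAMP 25 wk against AKR 25 wk.

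SAMP 25 wk was set against SAMP 5 wk to compare older mice with ileitis to young mice of the same strain without it. Few rows passed: 3 of 25 were higher (Defb1, Defa26 and Defa40) and 2 were lower (Defa39 and Defa29). Of all tested rows 0.909% were called higher and 0.611% lower. Fold changes had a median of 0.70 on the log2 scale over the tested defensin rows and of -0.12 over all tested rows.

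Defb1 showed the largest positive change. The SAMP 25 wk values given above, 31.2 to 45.7 FPKM, stood against 3.25, 2.06 and 0.56 FPKM in SAMP 5 wk (3.75 ± 0.43, adjusted p = 0.001). Defa26 was at 1912 to 3306 FPKM in SAMP 25 wk against 995, 528 and 615 FPKM in SAMP 5 wk (1.79 ± 0.35, adjusted p = 0.03). Defa40 was at 1119 to 1827 FPKM in SAMP 25 wk against 576, 314 and 350 FPKM in SAMP 5 wk (1.79 ± 0.37, adjusted p = 0.038). No library of the older mice overlapped with one of the young mice in these 3 rows. The sum of Defa40 and Defa26 was higher too (1.79 ± 0.37, adjusted p = 0.036). The calls of Defa26 and Defa40 ended without SAMP 25 wk replicate 2 or 3, without SAMP 5 wk replicate 2 or 3 or without AKR 25 wk replicate 1, each of which left 1 row called higher.

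The rows that were lower both have 11 cysteines. Defa39 was at 59.9 to 109 FPKM in SAMP 25 wk against 951, 1319 and 1441 FPKM in SAMP 5 wk (-3.88 ± 0.36, adjusted p = 0.00023). Defa29 was at 291 to 533 FPKM in SAMP 25 wk against 1975, 3059 and 3265 FPKM in SAMP 5 wk (-2.81 ± 0.38, adjusted p = 0.0035). The other rows of that kind did not pass: Defa38 was at 39.3 to 57.7 FPKM in SAMP 25 wk and at 105 to 132 in SAMP 5 wk (-1.33 ± 0.33, adjusted p = 0.078), and Defa42 overlapped. The sum of Defa38 and Defa29 was lower (-2.71 ± 0.39, adjusted p = 0.0046). Without AKR 25 wk replicate 2, 4 rows were called lower.

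The most abundant named Defa rows of SAMP 25 wk had positive fold changes between the ages that did not pass. Defa31 was at 16628, 10881 and 12405 FPKM in SAMP 5 wk, below every SAMP 25 wk library, with a fold change of 1.65 ± 0.43 (adjusted p = 0.086). Defa17 was at 15944, 11047 and 11951 FPKM in SAMP 5 wk (1.62 ± 0.44, adjusted p = 0.098). Defa24 was at 9197, 5980 and 6766 FPKM in SAMP 5 wk (1.57 ± 0.44, adjusted p = 0.11), and Defa30 at 3868, 2619 and 2915 FPKM (1.49 ± 0.40, adjusted p = 0.1). In these 4 rows no library overlapped between the ages, as in 13 of the 25 tested defensin rows. The share of such rows over all tested rows was not computed, so this adds nothing to the test. Defa5 lay the other way, with 5435, 4080 and 5006 FPKM in SAMP 5 wk, above all SAMP 25 wk values (-1.58 ± 0.40, adjusted p = 0.078). Defa35 overlapped, with 5534, 3995 and 4412 FPKM in SAMP 5 wk (-0.42 ± 0.35, adjusted p = 0.59).

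Of the listed regulators 1 was higher, Spdef, at 22.98, 9.01 and 11.4 FPKM in SAMP 5 wk (1.95 ± 0.31, adjusted p = 0.0072), and limma called none lower (5 higher and 1 lower at an unadjusted p under 0.05). Of the other Paneth markers 2 were higher, Ang4 and Pnliprp2. Ang4 was at 2659, 1262 and 1499 FPKM in SAMP 5 wk (2.87 ± 0.42, adjusted p = 0.0048), and Lyz1 at 25857, 24396 and 20238 FPKM (-1.67 ± 0.44, adjusted p = 0.093). Age and ileitis cannot be told apart in SAMP 25 wk against SAMP 5 wk.

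SAMP 5 wk was set against AKR 25 wk to compare the 2 strains where neither had inflammation, although the mice differ in age. Of 25 rows 2 were higher and 10 lower. Of all tested rows 0.289% were called higher and 0.263% lower. Over the tested defensin rows the fold change had a median of -1.23 on the log2 scale, against -0.03 over all tested rows. The unnamed rows, with 85541 to 103877 FPKM in SAMP 5 wk, are left out here too. This comparison shares its AKR libraries, or its SAMP 5 wk libraries, with the others, so the values are given side by side and their likeness was not counted.

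The rows that were higher were Defa2 and Defa35. Defa2 had 4514, 3231 and 3258 FPKM in SAMP 5 wk against the 51.0 to 59.3 FPKM of AKR 25 wk (5.99 ± 0.29, adjusted p = 3.4e-07). Defa35 had 3995 to 5534 FPKM in SAMP 5 wk against 77.3 to 175 FPKM in AKR 25 wk (5.25 ± 0.35, adjusted p = 5.3e-06). The lowest library of the young mice stood at 54.5 times the highest AKR library for Defa2 and at 22.9 times for Defa35. Whether the low AKR values hold reads of other copies was not tested, so these ratios are uncertain too. Defa31 lay above AKR in every library but did not pass (1.56 ± 0.43, adjusted p = 0.25), and Defa17 overlapped (0.59 ± 0.44, adjusted p = 0.85).

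The largest negative changes among called rows were those of Defa33, Defa21, Defa42, Defa3 and Defa20. Defa33 had 83.7, 56.7 and 0 FPKM in SAMP 5 wk against 7816 to 17920 FPKM in AKR 25 wk (-9.50 ± 1.23, adjusted p = 0.0029). Defa21 had 82.0, 61.6 and 1.52 FPKM in SAMP 5 wk against 6654 to 16344 FPKM in AKR 25 wk (-8.90 ± 0.99, adjusted p = 0.00072). Defa42 had 160, 118 and 6.19 FPKM in SAMP 5 wk against 11860 to 28137 FPKM in AKR 25 wk (-8.55 ± 0.88, adjusted p = 0.00038). In each of these the third SAMP 5 wk library was far below the first and second. Defa32, whose fold change of -6.51 did not pass (adjusted p = 0.064), was at 124 and 84.4 FPKM in the first and second and at 0 in that library too, where 3 reads would be worth 0.82 FPKM for Defa32 and for Defa33 alike. Defa20, with the same stretch as both, was not low there, with 301, 247 and 178 FPKM in SAMP 5 wk (-6.13 ± 0.35, adjusted p = 1.2e-06). Defa3 had 4.86, 10.1 and 0 FPKM in SAMP 5 wk (-8.34 ± 0.98, adjusted p = 0.0012).

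The other rows called lower were Defa38 (-5.76), Defa22 (-5.56), Defa37 (-2.61), Defa34 (-2.43) and Defa39 (-2.27). Defa38 had 116, 132 and 105 FPKM in SAMP 5 wk. The sum of Defa38 and its near-copy Defa29 did not pass (-1.83 ± 0.39, adjusted p = 0.086), so the call of Defa38 rests on the single row. The calls of Defa34, Defa37 and Defa39 each ended when 1 of several libraries was left out: without SAMP 5 wk replicate 2, AKR 25 wk replicate 1 or AKR 25 wk replicate 3 for all 3 rows, without SAMP 5 wk replicate 1 for Defa34 and Defa39, and without SAMP 5 wk replicate 3 for Defa34 and Defa37. Defa29, the fourth row with 11 cysteines, overlapped between SAMP 5 wk and AKR 25 wk (-0.42 ± 0.38, adjusted p = 0.9). Defa5 overlapped as well (0.50 ± 0.40, adjusted p = 0.87), and so did Defb1 (0.14 ± 0.43, adjusted p = 0.98). With copies at least 95% identical summed, limma called no row of 13 higher and 4 lower, against 2 and 6 at an unadjusted p under 0.05. Here too, the share called over all rows of that fit was not computed. The sum over Defa2, Defa33, Defa20 and Defa32 was 5022, 3619 and 3436 FPKM in SAMP 5 wk and was lower than in AKR 25 wk, with a fold change of -2.97 ± 0.42 (adjusted p = 0.0063). The sum over Defa35 and its 4 near-copies was 12766, 9261 and 10909 FPKM in SAMP 5 wk and overlapped with AKR 25 wk (-0.18 ± 0.43, adjusted p = 0.97). None of the 17 tested regulators passed limma's test in either direction (1 higher and 0 lower at an unadjusted p under 0.05), and 1 of the 10 Paneth markers was higher (Mptx2, 3.78 ± 0.38, adjusted p = 0.00032). Strain and age cannot be told apart in SAMP 5 wk against AKR 25 wk.

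**Figure D4:**
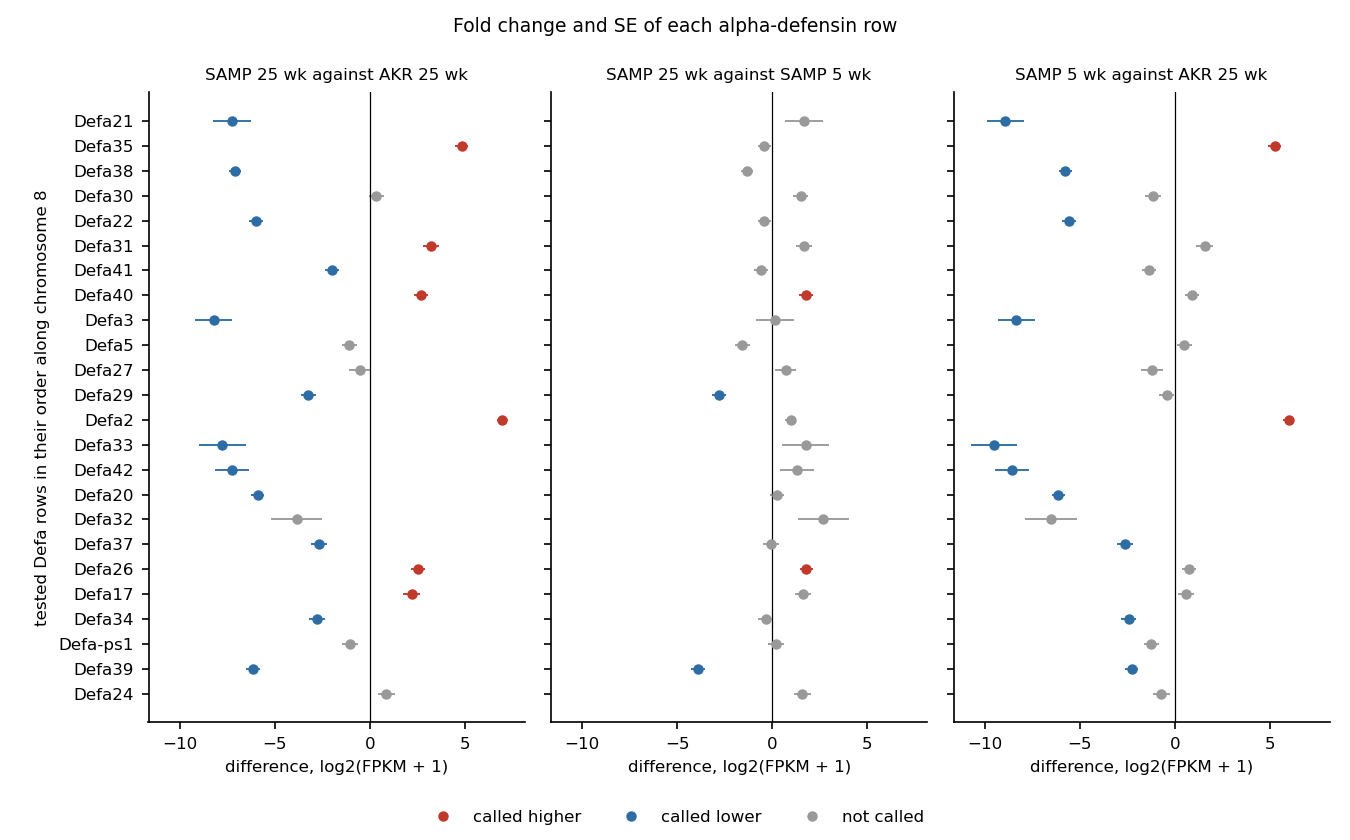
Log2 fold change with SE (horizontal axes, difference of log2(FPKM + 1)) of the 24 tested Defa rows in their order along chromosome 8, in 3 panels for SAMP 25 wk against AKR 25 wk, SAMP 25 wk against SAMP 5 wk and SAMP 5 wk against AKR 25 wk. Called rows are coloured; in the panels against AKR the higher rows, among them Defa2 at 6.96 and 5.99, lie between lower ones, with Defa33, Defa42, Defa20 and Defa37 a run of lower rows in both, and few rows are called between the ages of SAMP.

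Promoter windows of 300 bases, 250 before to 50 after the start, were found in RefSeq (GRCm38.p6) for 13 of the 30 rows, all Defa. Several of the 13 windows are copies or near-copies of each other, as given below, so counts over them are not counts of separate observations. The letters TATAAA on the sense strand stood in 12 of the 13, against 8.32% of 32851 windows of all genes. The letters CTTTG, the core that TCF/LEF factors of the Wnt pathway bind, stood on either strand in 11 of the 13, against 53.9% of all windows. The pair without it was Defa38 and Defa42, both with 11 cysteines and with windows 97.3% identical. Defa29 and Defa39, the other rows with 11 cysteines, had no window. The motifs shared no base in any member window. These are matches of letters, not sites shown to be used. The windows of Defa2 and Defa20, whose levels differed in opposite directions, were identical, and those of Defa35 and Defa37 were 98.0% identical. The windows of Defa2 and Defa42 were 61.4% identical. TATAAA stood at -31 from the annotated start in Defa2 and at -74 in Defa42, so these windows do not cover like stretches. The 250 bases before the start are shown for these 2 kinds, sense strand 5′ to 3′, with TATAAA and CAAAG, which is CTTTG on the other strand, in capitals. Defa2 is at chr8:21378267-21378516 on the plus strand and Defa42 at chr8:21456518-21456767 on the minus strand.
Defa2, the same in Defa20: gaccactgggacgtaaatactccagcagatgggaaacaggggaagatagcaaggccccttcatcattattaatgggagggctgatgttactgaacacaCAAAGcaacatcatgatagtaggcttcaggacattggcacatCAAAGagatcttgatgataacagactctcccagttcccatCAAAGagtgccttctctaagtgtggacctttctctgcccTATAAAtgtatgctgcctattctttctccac
Defa42: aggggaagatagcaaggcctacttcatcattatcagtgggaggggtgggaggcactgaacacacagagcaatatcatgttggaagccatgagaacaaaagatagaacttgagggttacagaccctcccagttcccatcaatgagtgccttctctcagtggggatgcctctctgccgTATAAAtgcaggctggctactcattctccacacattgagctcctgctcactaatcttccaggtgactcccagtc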

How the data were processed

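RNA of laser-captured ileal stem cell niche was sequenced in 9 libraries of 3 groups, set by strain and age in the labels. Replicates were numbered in accession order, which pairs no samples. Per the file headers, the authors' single deposited table holds FPKM beside gene numbers and RefSeq transcripts. The submitters' processing notes name STAR, HTSeq, Trimmomatic and DESeq2 and the build GRCm38, with no versions or roles. The strandedness, and how reads matching several copies were counted, are not given in the sources used here.

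Gene numbers were matched to RefSeq's annotation of GRCm38.p6 for 18155 rows, 10 more were matched on transcripts and 11 through GENCODE M21, and 44 stayed unnamed. Count models were not used on FPKM. Reads per library were estimated from the spacing of low FPKM in 12324 rows with 1 transcript, with 75 bases taken off the length: 77.8% to 86.9% of low values per library lay within 0.2 of a whole read, against 40% at random, so reads are estimates and cover counting error only. The 11775 rows averaging 1 FPKM or more entered the tests with limma 3.58.1 in R 4.3.3 on log2(FPKM + 1), a pseudocount of 1 that understates changes of low rows, all 9 libraries in 1 fit with a variance trend and 6 residual degrees of freedom, and Benjamini-Hochberg adjustment over all tested rows at 0.05. The fit was checked on simulated data. Coding sequences came from GENCODE M21 and identities from global alignments in Biopython 1.88, run under Python 3.11.15 with matplotlib 3.10.9 and pandas 2.3.3.

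The members and lists were chosen with earlier results of these data known. Rows given in full were the 5 largest called changes in each direction and comparison without overlap, the 5 most abundant Defa rows of each group and any Defb row with a mean of at least 1. Of other genes, Mmp7, Lyz1, Ang4, Nod2, Xbp1 and Slc30a2 were to be named; rows outside this rule (Defa22, Defa32, Defa34, Defa37, Defa41, Spdef, Mptx2 and Pnliprp2) were named after their values were seen. Alternatives were other pseudocounts, filters, scalings, thresholds, fits of 2 groups, sums over copies and libraries left out.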

Additional observations from a re-analysis of the deposited data

How the results depend on the processing

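No called defensin row changed its direction under an alternative fit of the single rows. Of rows not called, 9 fold changes (log2) took the other sign somewhere, 18 times in all. In SAMP 25 wk against AKR 25 wk, Defa24 was at -0.020 with quantile normalization and Defa30 between -0.018 and 0.62 with 1 library left out. In SAMP 25 wk against SAMP 5 wk, Defa34 was at 0.028 with quantile normalization, and Defa37 at 0.12 with it, 0.051 with equal medians and 0.14 when rescaled without ribosomal RNA and defensin rows. There, leaving out 1 library gave -0.35 to 0.20 for Defa37, -0.93 to 1.22 for Defa3, -0.20 to 0.54 for Defa-ps1, -0.12 to 2.12 for Defa42 and -0.28 to 2.92 for Defa33. In SAMP 5 wk against AKR 25 wk, Defb1 was at -0.080 when so rescaled, at -0.35 without both libraries that stand apart, and at -0.35 to 0.54 with 1 library left out. Between SAMP 25 wk and SAMP 5 wk, 3 rows were called higher and 2 lower: 5 were higher with a pseudocount of 5, with a minimum mean FPKM of 5 or at an adjusted p of 0.1 (then with 4 lower), 6 with quantile normalization, and 1 with no filter on low values or without both libraries that stand apart. Leaving out 1 library gave 1 to 3 higher and 2 to 4 lower. Counts under alternative settings, here and above, have no share over all tested rows beside them, as that share was not computed. With near-identical copies summed there were 4 higher and 5 lower in SAMP 25 wk against AKR 25 wk and 0 higher and 4 lower in SAMP 5 wk against AKR 25 wk, where Defa2 and Defa35 were summed with copies among which Defa33 and Defa37 had negative fold changes; for the other settings the cause was not tested. With the unnamed rows above 1000 FPKM added, an alternative chosen after seeing the data, the log2 ratio of the mean Defa sums was 0.54 for SAMP 25 wk against AKR 25 wk, 0.42 for SAMP 25 wk against SAMP 5 wk and 0.12 for SAMP 5 wk against AKR 25 wk. Setting the libraries to equal medians moved fold changes by 0.14 in SAMP 25 wk against AKR 25 wk and by 0.11 in SAMP 25 wk against SAMP 5 wk on the log2 scale. Choosing members by gene description was not run, as the reference tables used hold none. No paired analysis was possible because the labels give no shared replicate numbers. Reads shared by near-identical copies limit any single row, and the depth behind the lowest rows is a few reads.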
